A study of Mus musculus with 12 samples.

Results

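Hypoxia was compared with normoxia in mouse GC-2 cells that had received only the solvent DMSO, using 6 of the 12 libraries of the series: 3 from hypoxia and 3 from normoxia. GC-2 is an established mouse cell line, which the labels describe as type B spermatogonia with a WT genotype. Titles and cell line labels say GC-2 for every sample, while the number after GC in the cell type label differs from sample to sample, and all were taken as GC-2. All 6 cultures were given DMSO for 24 h in serum-containing medium, and hypoxia meant 1% O2 with nitrogen as the balance and the same CO2 as in normoxia. The other 6 libraries received 1 µM MLN4924, an inhibitor of the NEDD8-activating enzyme, and are used here only where the response to hypoxia differed with it. Genes were included where at least 3 of the 6 DMSO libraries reached 1 FPKM (a fragment count scaled to transcript length and library size), which 11805 of the 24770 genes in the table did. Whether replicate libraries came from separate cultures is said only in that the series text calls them biological, so the p-values measure the spread between these libraries.

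Cells sense low oxygen mainly through the prolyl hydroxylases Egln1 to Egln3, which use oxygen to mark the alpha subunits of hypoxia-inducible factor (HIF) for capture by the ubiquitin ligase receptor Vhl. When oxygen is scarce the alpha subunit escapes, pairs with Arnt and binds a short core sequence in the control regions of genes for glycolysis, acid export, mitophagy, vessel growth and collagen processing. Several of these targets, Egln1 and Egln3 among them, feed back on the pathway. Prolonged low oxygen is also known to slow ribosome production and to engage the integrated stress response, in which phosphorylation of the translation factor eIF2 favours synthesis of the transcription factor Atf4.

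The hypoxia library labelled replicate 1 stood apart from the other 5, and counts of calls are therefore also given without it. It held 633597 FPKM in total against 530452 to 557779 in the other 11 libraries of the series, and it lay outside the range of the other 5 libraries in 7367 tested genes. Its difference from normoxia moved with transcript length: the median over the shortest genes (up to 1779 bases) was 0.28 on the log2(FPKM + 1) scale, and over the longest (5119 bases and more) it was -0.52. In hypoxia replicates 2 and 3 the medians of the 5 length bins all lay between -0.08 and -0.02. Some long transcripts were nearly absent from replicate 1 alone. Mki67, a proliferation antigen with a very long transcript, was listed at 0 there and at 88.0 and 84.5 FPKM in replicates 2 and 3, against 59.4 to 68.9 FPKM in normoxia. The receptor Lrp1 read 6.64, 114 and 97.6 FPKM in hypoxia replicates 1 to 3. What made that library differ was not tested.

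**Figure D1:**
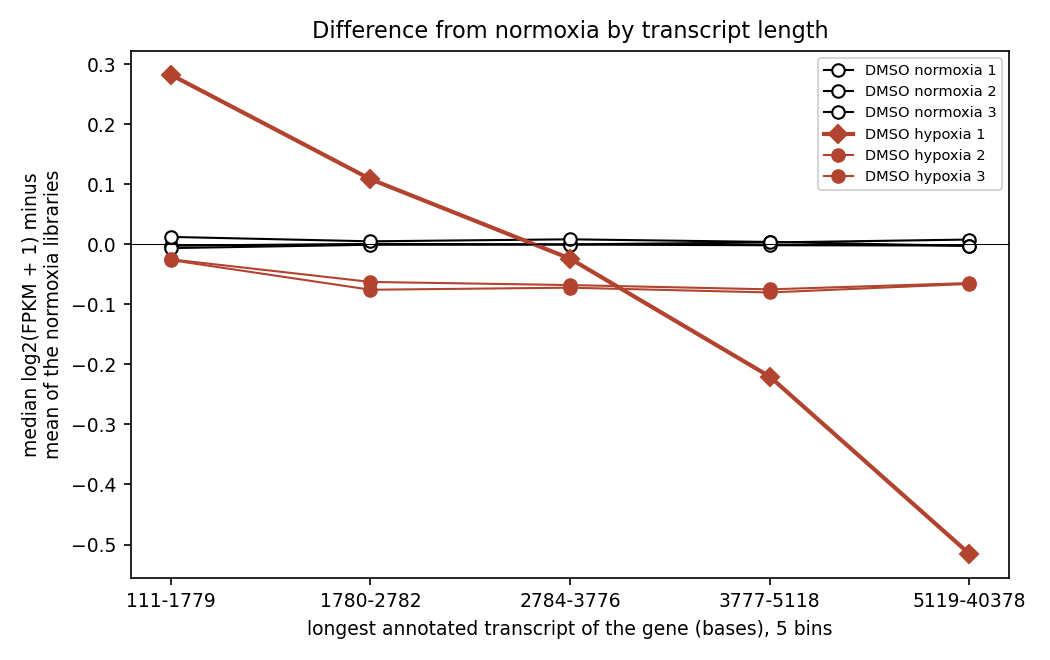
Median difference of each DMSO library from the mean of the 3 normoxia libraries (y axis, log2(FPKM + 1)) in 5 bins of the gene's longest annotated transcript (x axis, bases), with normoxia in open circles, hypoxia replicate 1 as diamonds and hypoxia replicates 2 and 3 as filled circles. Hypoxia replicate 1 runs from 0.28 in the shortest bin to -0.52 in the longest, while replicates 2 and 3 stay between -0.08 and -0.02.

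Of the 11805 genes, 2288 passed an adjusted p of 0.05 in limma (19.4%), split into 969 that rose (8.21%) and 1319 that fell (11.2%). At least 2-fold changes on the FPKM + 1 scale were called for 245 genes that rose (2.08%) and 195 that fell (1.65%). Without hypoxia replicate 1, 1548 genes rose (13.1%) and 2548 fell (21.6%), and 2260 of the 2288 calls were kept with none reversed. Rises made up 42.4% of the calls as fitted and 54.1% after rescaling by median-of-ratios size factors. The median log2 fold change of all tested genes was -0.08, the median standard error (SE) was 0.15, and the 3 and 3 libraries did not overlap in 2220 genes that were higher (18.8%) and 3234 that were lower (27.4%). Counts of list members in what follows stand against 8.21% higher and 11.2% lower of all genes. Counts without hypoxia replicate 1 stand against 13.1% and 21.6%. Values after "±" are SE of the limma fit unless marked as SD.

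**Figure D2:**
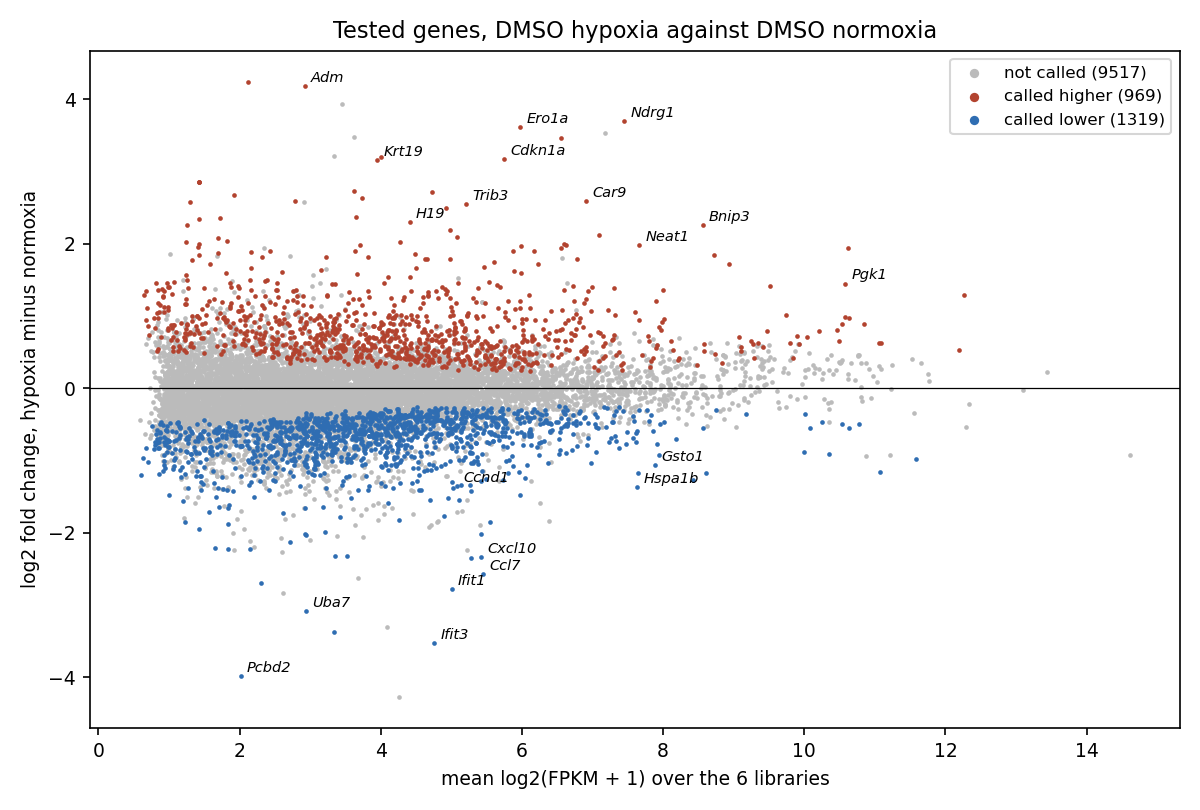
Log2 fold change of hypoxia against normoxia (y axis) against the mean log2(FPKM + 1) of the 6 DMSO libraries (x axis) for the 11805 tested genes, with the 969 called higher in red, the 1319 called lower in blue and the rest in grey. Adm, Ndrg1 and Ero1a lie at the upper edge and Pcbd2, Ifit3 and Uba7 at the lower edge among the called genes.

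The germ cell label was checked against markers. Of 10 spermatogonial markers in the table, Uchl1, Gfra1, Etv5 and Ret reached 1 FPKM in at least 3 of the 6 libraries, and the defining germ cell genes Ddx4, Kit, Sohlh1 and Nanos3 did not. Markers of fibroblasts and peritubular cells were more abundant: 9 of 12 reached that level, and their sum ran from 3699 to 3814 FPKM in normoxia and from 4295 to 5489 FPKM in hypoxia. Among Sertoli cell markers 7 of 12 were present, with a sum of 45.46 to 55.69 FPKM in normoxia and 50.15 to 55.97 FPKM in hypoxia. Only 1 was called (2 without hypoxia replicate 1). It was Wt1, a transcription factor of the developing gonad, which rose from 0.53, 0.46 and 0.40 FPKM to 7.60, 5.00 and 7.08 FPKM. In bulk RNA, fewer cells of a type and less RNA per cell cannot be told apart. Macrophage markers were close to absent, with only Cd68 and Cd14 of 7 at or above 1 FPKM in 3 libraries.

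Oxygen sensing itself changed. Of 15 tested HIF subunits and oxygen sensors, 5 rose and 2 fell (background 8.21% and 11.2%), or 5 and 4 without hypoxia replicate 1, with a list median of 0.16 against -0.08 for all genes. Egln1, the main HIF prolyl hydroxylase, read 30.0, 30.1 and 28.3 FPKM in normoxia and 131, 101.28 and 106 FPKM in hypoxia, a log2 difference of 1.89 ± 0.11 (adjusted p = 4.63e-04). Its relative Egln3 read 6.70, 6.28 and 6.48 FPKM in normoxia and 28.1, 24.0 and 24.6 FPKM in hypoxia. The groups did not overlap for either enzyme. Vhl, the receptor that captures hydroxylated HIF, rose by 0.86 ± 0.12 on the log2 scale (adjusted p = 0.00692), and the ubiquitin ligases Siah2 and Siah1b, which can degrade prolyl hydroxylases, rose by 0.62 ± 0.12 and 0.52 ± 0.13. Hif1a, the alpha subunit that gives the pathway its name, went the other way: 46.2, 46.9 and 45.8 FPKM in normoxia and 28.6, 26.3 and 31.5 FPKM in hypoxia (log2 difference -0.67 ± 0.09, adjusted p = 0.00586). The other member that fell was Cited4, a coactivator-binding protein (-0.59). Hif1a is regulated mainly as a protein, which these libraries do not measure.

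Transcriptional repressors known as HIF targets split into a rising and a falling group, 4 and 3 of 11, with the same counts without hypoxia replicate 1. Bhlhe40, a clock-linked repressor, read 32.5, 30.3 and 30.7 FPKM in normoxia and 129, 118 and 129 FPKM in hypoxia (log2 difference 1.97 ± 0.07), and its paralog Bhlhe41 rose from at most 0.46 to at least 2.53 FPKM. The MYC antagonist Mxi1 and Foxo3 rose by 1.02 ± 0.13 and 0.77 ± 0.13. Id1, Id2 and Id3, inhibitors of basic helix-loop-helix factors, all fell, by 1.20, 0.55 and 0.76 on the log2 scale. The list of Jumonji proteins and other histone demethylases had 5 of 26 members called higher and none lower (7 and none without hypoxia replicate 1). Kdm3a led them with 14.1, 14.2 and 9.63 FPKM in normoxia and 29.8, 34.9 and 35.5 FPKM in hypoxia, followed by Jmjd6, Kdm6b, Kdm4a and Kdm4b. No member of the 15 other oxygen-dependent dioxygenases passed the test, and without hypoxia replicate 1 the RNA demethylase Alkbh5 (34.3, 63.3 and 61.5 FPKM in hypoxia replicates 1 to 3 against 38.1 to 40.3 FPKM in normoxia) and Tet2 did.

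Glycolysis was raised along nearly its whole length. Of 21 tested members, 14 rose and 1 fell (without hypoxia replicate 1, 15 and 2), the median log2 difference was 0.80, and the summed share of the library went from 1.92% to 3.82% of FPKM. Pgk1, phosphoglycerate kinase, read 885, 956 and 940 FPKM in normoxia and 3043, 2268 and 2358 FPKM in hypoxia, a log2 difference of 1.45 ± 0.14. Slc2a1, the glucose transporter GLUT1, read 62.5, 65.2 and 62.4 FPKM in normoxia and 140, 189 and 190 FPKM in hypoxia. No normoxia library reached a hypoxia library for either gene. Aldoc and Pfkp had the largest changes (1.90 ± 0.17 and 1.68 ± 0.08), Hk2, the hexokinase isoform known to respond to HIF, rose by 1.41 ± 0.10, and Gapdh, often used as a reference gene, by 1.30 ± 0.15. The member that fell was Tigar, a phosphatase that opposes glycolysis (log2 difference -0.75 ± 0.11). Pfkfb4 was erratic, at 0, 5.87 and 0.66 FPKM in hypoxia against 5.62 to 7.38 FPKM in normoxia, and it did not pass.

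At the branch point of pyruvate, 4 of 19 members rose and 1 fell (6 and 3 without hypoxia replicate 1). Bsg, the chaperone of lactate transporters, went from 780, 796 and 829 FPKM to 3786, 2644 and 2894 FPKM (log2 difference 1.94 ± 0.15), and Pdk1, the kinase that shuts pyruvate dehydrogenase, and Ldha, which makes lactate, rose by 1.01 ± 0.10 and 0.89 ± 0.12. The lactate carrier Slc16a1 rose by 0.37. Pdp2, a phosphatase that reopens pyruvate dehydrogenase, fell by 0.54 on the log2 scale. The lactate exporter Slc16a3 was decided by 1 library: it read 218, 504 and 506 FPKM in hypoxia and 256 to 277 FPKM in normoxia, with an adjusted p of 0.321 in limma and 2.65e-04 without hypoxia replicate 1. In the TCA cycle none of 22 members rose and 6 fell, and 13 fell without that replicate. Aco1, Idh1 and Ogdh fell by 0.78, 0.76 and 0.71 on the log2 scale. The pentose phosphate enzymes Pgd and G6pdx, which make NADPH, fell by 0.90 and 0.60 (none of 8 higher and 2 lower, or 1 and 3 without hypoxia replicate 1).

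Glycogen genes rose at several steps, 9 of 19 tested members against 1 that fell (11 and 1 without hypoxia replicate 1). Gys1, muscle-type glycogen synthase, read 29.9, 31.6 and 30.4 FPKM in normoxia and 69.0, 88.3 and 92.3 FPKM in hypoxia. Gbe1, the branching enzyme, went from 10.9, 12.8 and 13.0 FPKM to 50.3, 41.0 and 43.9 FPKM (log2 difference 1.79 ± 0.11). Neither pair of groups overlapped. The phosphatase targeting subunits Ppp1r3c and Ppp1r3b rose by 1.79 ± 0.09 and 2.04 ± 0.45, the latter with 2.53 FPKM in hypoxia replicate 1 and 9.05 and 9.37 FPKM in the other hypoxia libraries, and Stbd1, which tethers glycogen to membranes, rose by 2.03 ± 0.15. The 2 glycogen phosphorylases expressed here moved in opposite directions: Pygl rose from 0.53 to 0.72 FPKM in normoxia to 3.99 to 4.66 FPKM in hypoxia, and Pygb, the more abundant isoform, fell by 0.51 on the log2 scale.

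Acid handling was led by Car9, the membrane carbonic anhydrase that is a standard HIF target, at 46.1, 47.0 and 51.0 FPKM in normoxia and 339, 262 and 289 FPKM in hypoxia (log2 difference 2.60 ± 0.11, adjusted p = 1.73e-04). No normoxia library came near a hypoxia library. The secreted enzyme Car6 and the bicarbonate transporter Slc4a4 also rose, and the cytosolic Car13 fell (3 and 1 of 9 tested, or 3 and 2 without hypoxia replicate 1).

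Short HIF core sequences stood near the start sites of several of these genes. The promoters below are from RefSeq on build GRCm38.p6 and run 5′ to 3′ on the gene's strand. Only promoters with a match were considered, so the core in each is set by the choice. Among those, they were chosen because their genes carry the oxygen-sensing, glycolytic, acid and mitophagy results, with Ero1a for oxidative folding and Ddit4 for mTORC1. Capitals mark each ACGTG on either strand (the reverse appears as CACGT).
Egln1 (chr8:124949306-124949334, minus strand): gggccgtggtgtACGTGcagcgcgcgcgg
Egln3 (chr12:54204087-54204115, minus strand): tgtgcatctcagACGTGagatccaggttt
Slc2a1 (chr4:119108697-119108725, plus strand): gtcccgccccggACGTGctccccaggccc
Pgk1 (chrX:106186938-106186985, plus strand): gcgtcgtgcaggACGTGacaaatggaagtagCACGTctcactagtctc
Car9 (chr4:43506996-43507024, plus strand): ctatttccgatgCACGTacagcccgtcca
Ero1a (chr14:45318619-45318647, minus strand): cgcgcgccgctgCACGTccgcaggggagg
Bnip3 (chr7:138909597-138909626, minus strand): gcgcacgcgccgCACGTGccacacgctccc
Ddit4 (chr10:59951941-59951969, minus strand): agaacgttgcgaACGTGcgcccggtgcct
Pgk1 carries the core on both strands within 1 short stretch, and in Bnip3 the match overlaps an E-box, CACGTG, which the search counts as a match on each strand. In the window from 250 bases before to 50 after the start, ACGTG on either strand was in 19.7% of all 32544 promoters, in 26.1% of the 11356 promoters of tested genes, in 36.3% of the 223 promoters of genes called at least 2-fold higher, and in 26.4% of the 178 of genes called at least 2-fold lower. Among the glycolytic genes that rose it was in 11 of 21 promoters (52.4%), which belonged to 14 genes. A gene with several promoters was counted once for each. The alternative core GCGTG was in 51.7% of the promoters of tested genes, 52.9% of those called at least 2-fold higher and 44.4% of those called at least 2-fold lower. A match describes letters in this window and shows no binding.

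Of 13 mitochondrially encoded transcripts 4 fell and none rose (7 and none without hypoxia replicate 1). Their summed share of all FPKM averaged 7.05% in hypoxia against 11.3% in normoxia. Over all symbols that start with mt-, the share was 5.87% to 8.25% in the hypoxia libraries against 10.4% to 12.5% in normoxia. mt-Nd1, a complex I subunit, read 4727, 3973 and 4312 FPKM in normoxia and 2312, 2049 and 2211 FPKM in hypoxia, without overlap (log2 difference -0.98 ± 0.12). mt-Nd2, mt-Nd4 and mt-Nd5 fell by 0.91, 0.56 and 0.47. The sum was dominated by mt-Atp8, with 39122, 30508 and 35105 FPKM in normoxia and 14083, 19527 and 22001 FPKM in hypoxia, which did not pass (adjusted p = 0.0542). mt-Co3 went the other way without passing, at 0.03, 471 and 156 FPKM in normoxia and 669, 263 and 679 FPKM in hypoxia, as did mt-Co2 with a log2 difference of 1.81. Nuclear-encoded complex I subunits had 1 of 36 called higher (Ndufv3) and 1 lower (Ndufa10), but 3 and 11 without hypoxia replicate 1, where the list median was -0.13. In complexes III to V, 1 of 35 rose (Cox7a2l) and 1 fell (Atp5g1), and without that replicate 2 rose and 18 fell. Mitochondrial ribosomal proteins had 7 of 62 called lower, a share near the background of 11.2%, and 29 without replicate 1, led by Mrps6 (log2 difference -0.94 ± 0.11).

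Individual respiratory genes moved strongly. Higd1a, a small protein known to protect the respiratory chain in low oxygen, went from 38.3, 40.6 and 42.1 FPKM to 180, 117 and 116 FPKM (log2 difference 1.72 ± 0.18). Lonp1, the matrix protease that can degrade a cytochrome oxidase subunit in hypoxia, read 75.5, 78.2 and 78.8 FPKM in normoxia and 208, 205 and 204 FPKM in hypoxia. Ndufa4, a subunit associated with complex IV, fell from 337, 339 and 339 FPKM to 225, 169 and 150 FPKM. These groups did not overlap. Ndufv3 rose by 1.36 ± 0.16 and Cox7a2l, which helps to join respiratory complexes, by 1.01 ± 0.16. The mitophagy receptors Bnip3 and Bnip3l, which draw mitochondria to autophagosomes, were among the strongest rises: Bnip3 read 181, 166 and 169 FPKM in normoxia and 1105, 680 and 746 FPKM in hypoxia, and Bnip3l rose by 1.60 ± 0.09. Of 24 mitophagy and dynamics genes 3 rose, with Calcoco1 the other, and the ligase Mul1 fell, against 8.21% and 11.2% of all genes. Without hypoxia replicate 1 the counts were 4 and 6, near the 13.1% and 21.6% of all genes.

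Among vasoactive and angiogenic factors 10 of 28 rose and 2 fell (11 and 3 without hypoxia replicate 1). Adm, the vasodilator peptide adrenomedullin, read 0.99, 0.68 and 0.68 FPKM in normoxia and 36.1, 27.1 and 31.5 FPKM in hypoxia, an 18.2-fold change on the FPKM + 1 scale (log2 difference 4.19 ± 0.14, adjusted p = 9.92e-05). Vegfa, the main angiogenic growth factor, went from 37.3, 36.8 and 35.4 FPKM to 134, 134 and 149 FPKM, and Apln, the ligand of the apelin receptor, from 13.6, 13.5 and 14.3 FPKM to 70.6, 63.9 and 64.9 FPKM. All 3 separated the groups without overlap. Angptl6 and Fgf21 rose from about or below 1 FPKM (log2 differences 1.87 ± 0.18 and 1.85 ± 0.27). Fgf2 and Efna3 fell by 0.65 and 0.48. Angptl4, a HIF target in other tissues, had a log2 difference of -0.32 and did not pass.

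Ndrg1, a gene known for its response to hypoxia in many cell types, was among the most abundant of the leading genes, with 46.3, 47.6 and 48.0 FPKM in normoxia and 696, 563 and 632 FPKM in hypoxia (log2 difference 3.70 ± 0.09, adjusted p = 5.74e-05). Its relatives Ndrg2 and Ndrg4 rose by 0.69 ± 0.14 and 0.42 ± 0.10. Krt19, a keratin of simple epithelia, went from 3.86, 4.12 and 4.53 FPKM to 49.98, 41.7 and 43.8 FPKM, and Sprr1a, a cornified envelope precursor, rose by 2.00 ± 0.11, while the junction protein plakoglobin, Jup, fell by 0.71. Ankrd37 and 2610528A11Rik rose by 3.20 ± 0.21 and 3.46 ± 0.14, the latter from 23.5 to 30.4 FPKM in normoxia to 281 to 366 FPKM in hypoxia.

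**Figure D3:**
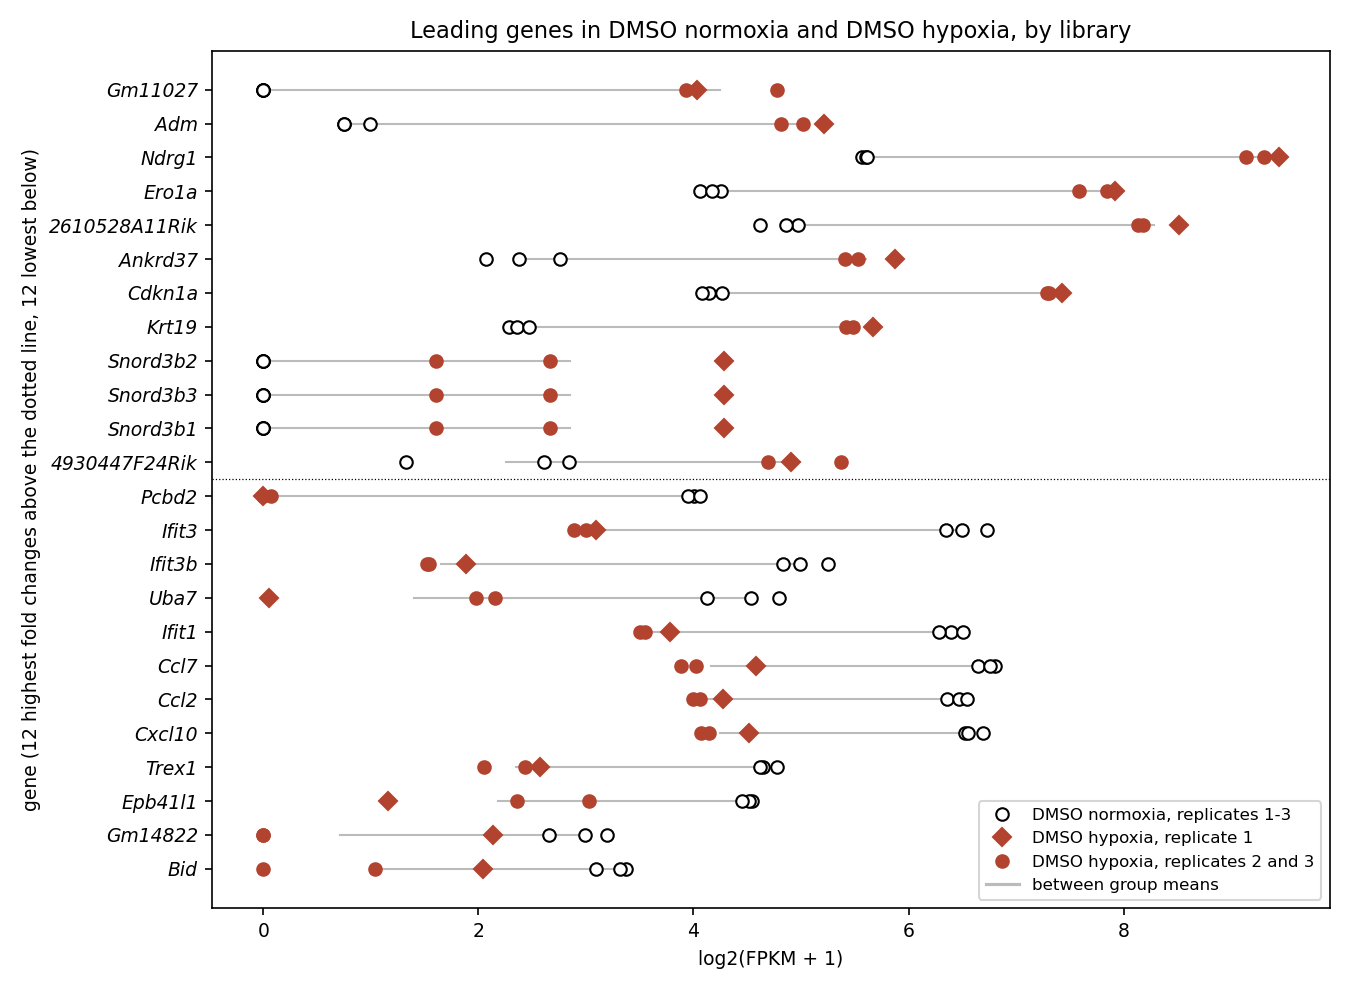
Log2(FPKM + 1) (x axis) of the 12 genes with the largest rises and the 12 with the largest falls (y axis) in each DMSO library, with normoxia in open circles, hypoxia replicate 1 as diamonds, hypoxia replicates 2 and 3 as filled circles and grey lines between group means. The 24 genes were selected for groups that do not overlap, so their separation is set by the selection. Hypoxia replicate 1 lies apart from the other hypoxia libraries for Uba7, Gm14822 and the 3 Snord3b copies, among others.

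Some leading genes rest on values that need care. Gm11027 was listed at 0 in all normoxia libraries and at 15.4, 26.5 and 14.2 FPKM in hypoxia, and Pcbd2 showed the reverse, with 15.1, 14.5 and 15.7 FPKM in normoxia and 0, 0 and 0.05 FPKM in hypoxia. Snord3b1, Snord3b2 and Snord3b3 carried identical values (0 in normoxia, and 18.5, 2.05 and 5.33 FPKM in hypoxia), so these near-identical small nucleolar RNA copies cannot be told apart. An exact 0 can also be a failed estimate, and no fold is given against it. In all, 7 genes were at 0 in every normoxia library and at 1 FPKM or more in every hypoxia library, namely Aire, Ghrh, Gm11027, H2ac22 and the 3 Snord3b copies, and Zfp385b showed the reverse. Bid, a BH3-only death gene, read 3.13, 1.06 and 0 FPKM in hypoxia against 7.55 to 9.35 FPKM in normoxia, and Epb41l1 and Gm14822 scattered as widely.

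Among enzymes that hydroxylate and cross-link collagen, 10 of 20 were called higher and 3 lower (12 and 4 without hypoxia replicate 1), with a median of 0.32. P4ha2, a prolyl hydroxylase subunit for collagen, read 53.5, 64.2 and 60.9 FPKM in normoxia and 145, 157 and 163 FPKM in hypoxia. Loxl2 and Lox, which cross-link collagen and elastin, rose by 1.11 ± 0.12 and 1.07 ± 0.22, and the lysyl hydroxylases Plod2 and Plod1 by 1.06 ± 0.09 and 1.03 ± 0.07. Paralogs differed: P4ha1 rose by 0.94 ± 0.08 while P4ha3 fell by 0.81, and P3h1 and Loxl1 fell by 0.45 and 0.30. The matrix proteins that these enzymes act on had 2 of 26 called higher (Col5a1 and Fbln1) and 2 lower (Col6a1 and Col6a2), and 14 higher and 4 lower without hypoxia replicate 1. Fn1, fibronectin, shows the difference: it read 97.5, 365 and 354 FPKM in hypoxia and 191 to 201 FPKM in normoxia, with an adjusted p of 0.759 as fitted and 1.95e-04 without that library.

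Stress genes tied to Atf4 formed a further rising block. Of 17 transcription factors and regulators of the integrated stress response, 9 rose and 2 fell (10 and 2 without hypoxia replicate 1). Atf4 itself read 183, 184 and 185 FPKM in normoxia and 410, 349 and 321 FPKM in hypoxia (log2 difference 0.96 ± 0.10). Trib3, a pseudokinase induced by Atf4, went from 13.2, 14.3 and 15.6 FPKM to 94.5, 89.3 and 82.8 FPKM (2.55 ± 0.09, adjusted p = 1.16e-04), and Ddit3, which encodes CHOP, from 25.8, 25.8 and 24.9 FPKM to 104, 83.7 and 78.4 FPKM. None of these overlapped between groups. Chac1, which degrades glutathione, rose by 1.86 ± 0.10. Of the kinases that phosphorylate eIF2, Eif2ak2 (the interferon-inducible PKR) and Eif2ak1 fell by 1.42 and 0.66, and Eif2ak3 and Eif2ak4 had log2 differences of -0.78 and -0.44 that did not pass.

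The enzymes for serine, one-carbon units, asparagine and proline followed, with 12 of 21 higher, 3 lower and a median of 0.67 (13 and 5 without hypoxia replicate 1). Asns, asparagine synthetase, read 54.8, 59.1 and 61.0 FPKM in normoxia and 227, 193 and 191 FPKM in hypoxia (log2 difference 1.78 ± 0.09). The folate enzymes divided by compartment. The mitochondrial Aldh1l2, Mthfd2, Mthfd1l and Shmt2 rose by 1.38 ± 0.18, 0.95 ± 0.07, 0.71 ± 0.08 and 0.67 ± 0.07, while their cytosolic counterparts Mthfd1 and Shmt1 fell by 0.87 and 0.63, and cytosolic Aldh1l1 and mitochondrial Mthfd2l had log2 differences of -0.28 and -0.10 that did not pass. Shmt2 and Shmt1 gave 77.0 to 84.0 and 17.0 to 19.03 FPKM in normoxia and 125 to 137 and 9.71 to 12.51 FPKM in hypoxia, with no overlap of the groups. The third member that fell was Got2, the mitochondrial aspartate aminotransferase (-0.49). The proline enzyme Pycr1 rose by 1.54 ± 0.08 and the cystathionine lyase Cth by 1.33 ± 0.09.

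Cytosolic aminoacyl-tRNA synthetases had 8 of 20 higher, with Sars, Nars, Gars and Cars between 0.68 and 0.84 on the log2 scale, and 2 lower, Kars (lysine) at -0.65 and Farsa (phenylalanine) at -0.36 (11 and 4 without hypoxia replicate 1). Amino acid transporters were balanced, 4 of 16 in each direction (6 and 5 without hypoxia replicate 1): the cystine carrier Slc7a11 and the neutral carrier Slc1a4 rose by 1.01 ± 0.16 and 0.96 ± 0.11, and the taurine transporter Slc6a6 fell by 1.24. In the mTORC1 group 4 of 25 rose and 5 fell (4 and 9 without hypoxia replicate 1). Ddit4, which restrains mTORC1 in hypoxia, went from 46.8, 46.6 and 47.7 FPKM to 206, 180 and 168 FPKM, and the translation brake Eif4ebp1 rose by 1.10 ± 0.09, while Sesn3 fell by 1.21.

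An element resembling the known Atf4 site, TGATGNAA on either strand, is shown for 4 of these genes, picked among those with a match because they carry the amino acid results. It was in 4 of the 10 promoters of 9 stress response regulators that rose (40%). For 10 serine, asparagine and proline enzymes that rose it was in 2 of 11 promoters (18.2%). Its share was 4.48% in the promoters of genes called at least 2-fold higher and 2.08% in those of tested genes.
Chac1 (chr2:119351037-119351068, plus strand): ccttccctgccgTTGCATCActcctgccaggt
Asns (chr6:7693213-7693244, minus strand): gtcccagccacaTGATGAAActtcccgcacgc
Pycr1 (chr11:120643832-120643863, minus strand): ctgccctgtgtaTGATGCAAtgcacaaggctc
Slc7a11 (chr3:50443641-50443691, minus strand): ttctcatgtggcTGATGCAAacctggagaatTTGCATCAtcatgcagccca
Slc7a11 holds the element on each strand. The stretches are from RefSeq on GRCm38.p6, with the matches in capitals.

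In oxidative folding in the endoplasmic reticulum 5 of 22 rose and none fell (7 and 3 without hypoxia replicate 1): Ero1a, the oxidase that passes electrons from new disulfides to oxygen, read 18.1, 15.7 and 17.1 FPKM in normoxia and 241, 191 and 229 FPKM in hypoxia (3.62 ± 0.11, adjusted p = 9.18e-05), and P4hb, a disulfide isomerase that is also a collagen hydroxylase subunit, rose by 0.63 ± 0.10. In the unfolded protein response 1 of 22 rose (Herpud1) and 5 fell (3 and 11 without hypoxia replicate 1), with the chaperones Hyou1 and Calr at -0.65 ± 0.17 and -0.49 ± 0.08, and Hspa5, its standard readout, had a log2 difference of -0.08 ± 0.13 that did not pass. Cytosolic heat shock proteins had 14 of 34 lower and none higher (20 and none without hypoxia replicate 1). Hspa1b, an inducible HSP70, went from 323, 318 and 317 FPKM to 103, 139 and 129 FPKM, and Hsph1, Hspb8 and the mitochondrial Hspe1 fell by 1.29, 0.93 and 0.74.

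The Hspe1 promoter is shown for its 2 overlapping matches to a heat shock element (RefSeq, GRCm38.p6, matches in capitals). The element is the letters GAA, any 2 bases, TTC, any 2 bases and GAA, searched on both strands. It was in 4 of 16 promoters (25%) of 12 heat shock genes that fell, against 0.484% of the promoters of tested genes.
Hspe1 (chr1:55088047-55088088, plus strand): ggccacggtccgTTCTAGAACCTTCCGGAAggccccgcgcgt

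Proteasome subunits fell in 16 of 33 cases with a median of -0.46, and without hypoxia replicate 1 in 31 of 33. Psmd1, a scaffold of the regulatory particle, read 121, 117 and 114 FPKM in normoxia and 54.5, 57.1 and 58.3 FPKM in hypoxia, without overlap. Psmd3, Psmb2 and Psmd2 fell by 0.88, 0.83 and 0.77.

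Genes of ribosome production fell, while calls for ribosomal proteins depended on hypoxia replicate 1. Of 54 genes of the nucleolus, rRNA processing and RNA polymerase I, 28 fell and 2 rose (37 and 3 without hypoxia replicate 1), with a median of -0.60, and the medians in hypoxia replicates 1 to 3 were -0.58, -0.46 and -0.61. Ddx21, an rRNA helicase, went from 41.9, 41.5 and 39.9 FPKM to 16.3, 22.1 and 18.8 FPKM (log2 difference -1.08 ± 0.12), and Polr1b, a core subunit of RNA polymerase I, from 8.53, 8.57 and 8.58 FPKM to 3.09, 4.71 and 3.78 FPKM. The members that rose were Taf1d (1.54 ± 0.21) and Polr1c, a subunit shared with RNA polymerase III (0.52 ± 0.11). Cytosolic ribosomal proteins had a median of 0.39 with 6 of 63 called higher, near the 8.21% of all genes, and 1 called lower. The groups did not overlap in 51 of the 63 that were higher and 1 that was lower, against 18.8% and 27.4% of all genes. The list median was 0.77 in hypoxia replicate 1 and 0.20 and 0.21 in replicates 2 and 3. Without replicate 1, 38 rose and 2 fell, against 13.1% and 21.6% of all genes. Rps13 was the member that fell (log2 difference -0.82 ± 0.18).

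**Figure D4:**
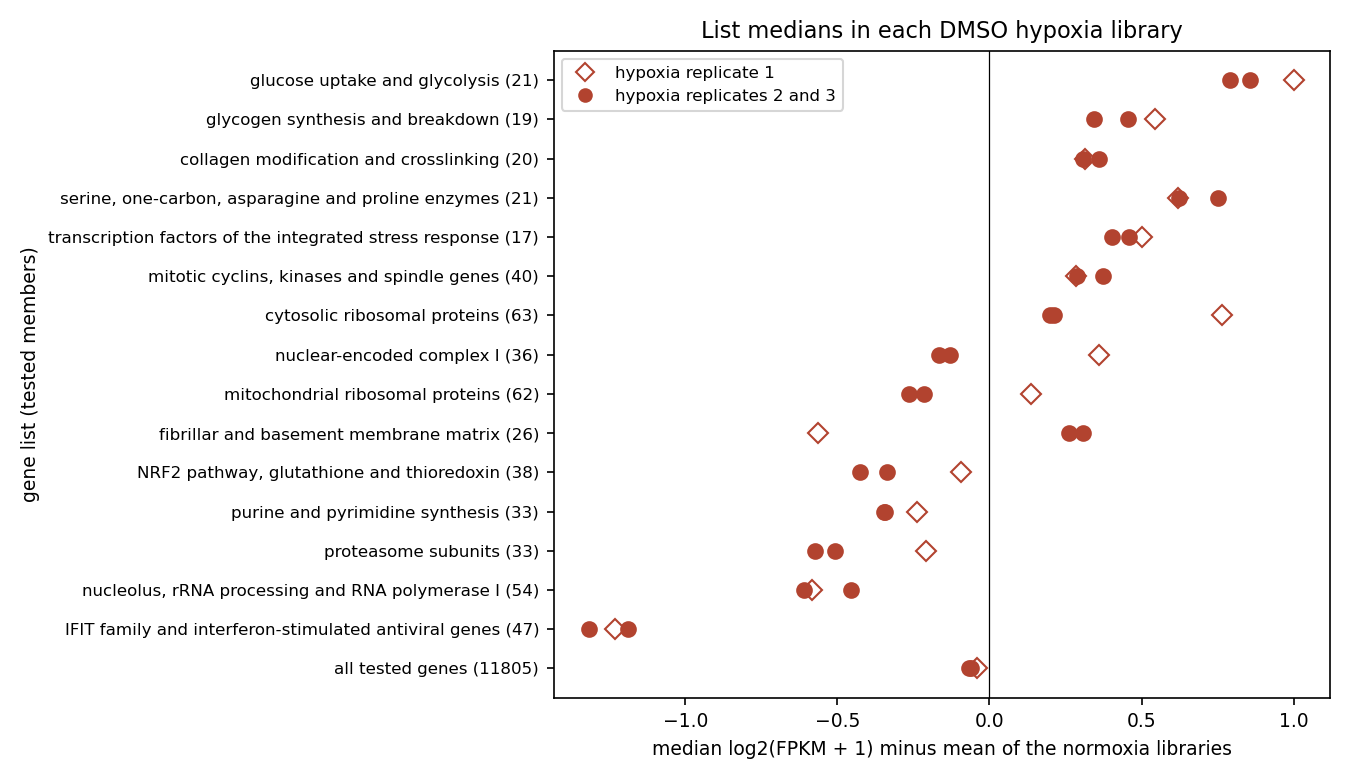
Median difference from the mean of the normoxia libraries (x axis, log2(FPKM + 1)) of 15 gene lists and of all tested genes (y axis, tested members in brackets) in hypoxia replicate 1 (open diamonds) and replicates 2 and 3 (filled circles). Interferon-stimulated and nucleolar genes are low and glycolytic genes high in all 3 libraries, while ribosomal proteins, complex I and matrix genes differ between replicate 1 and the other 2.

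Long non-coding RNAs had 7 of 19 higher and none lower (9 and 2 without hypoxia replicate 1). H19, an imprinted transcript, read 8.89, 7.71 and 9.14 FPKM in normoxia and 46.9, 42.0 and 50.1 FPKM in hypoxia (log2 difference 2.30 ± 0.10), and Neat1, the scaffold of paraspeckles, 106, 109 and 88.6 FPKM and 424, 376 and 401 FPKM. Both separated the groups. The other 5 were hosts of small nucleolar RNAs (Snhg12, Gas5, Epb41l4aos, Snhg5 and Snhg1), with Snhg12 at 1.46 ± 0.14 and Gas5 at 1.38 ± 0.21. The imprinted Notch ligand Dlk1 rose by 2.37 ± 0.19. Among splicing regulators the kinases Clk1, Clk3 and Clk4 rose by 1.00 ± 0.17, 0.84 ± 0.08 and 0.83 ± 0.16, while Hnrnpd, Luc7l3 and Srsf3 fell by 1.01, 0.82 and 0.81.

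Interferon-stimulated genes had the largest share of falling members among the lists with at least 10. Of 47 tested members 41 fell and 1 rose (45 and 2 without hypoxia replicate 1), against 11.2% and 8.21% of all genes, with a median of -1.27 and medians of -1.23, -1.32 and -1.19 in the 3 hypoxia libraries. Ifit3, which binds viral RNA complexes, went from 89.1, 80.3 and 105 FPKM to 7.53, 7.03 and 6.39 FPKM (log2 difference -3.53 ± 0.12, adjusted p = 9.92e-05), and Ifit1 from 83.4, 76.9 and 90.0 FPKM to 12.8, 10.7 and 10.4 FPKM. Isg15, the ubiquitin-like modifier, read 533, 483 and 580 FPKM in normoxia and 268, 211 and 187 FPKM in hypoxia. No hypoxia library reached a normoxia library in any of these. Uba7, the enzyme that activates Isg15, fell by 3.09 ± 0.57, with 0.04 FPKM in hypoxia replicate 1 and 2.95 and 3.45 FPKM in replicates 2 and 3. The member that rose was Isg20, a 3′ exonuclease, from 28.2, 30.1 and 30.2 FPKM to 96.1, 77.2 and 72.2 FPKM.

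Upstream, 7 of 23 interferon signalling genes fell and 1 rose (8 and 1 without hypoxia replicate 1). Stat2, which carries the interferon signal, fell by 1.31, and Irf7 by 0.76, as did the DNA sensor Cgas and its adaptor Sting1 (0.65 and 0.62). The receptor chain Ifnar2 rose by 0.68 ± 0.12. In the MHC class I group 8 of 20 fell and 2 rose (H2-K1, and H2-M3, whose call was lost without hypoxia replicate 1, when 13 fell and 1 rose), with the immunoproteasome subunit Psmb10 at -1.41 ± 0.11. The list of chemokines and cytokines split. The chemokines Ccl7, Ccl2, Cxcl10 and Cxcl1, which attract monocytes, T cells or neutrophils, fell (log2 differences -2.57, -2.35, -2.34 and -1.65). So did 3 others of the 14 (8 in all without hypoxia replicate 1). The cytokines Lif, Il33 and Mif and the chemokine Cxcl12 rose. Ccl2 read 81.2, 87.8 and 92.2 FPKM in normoxia and 18.3, 14.9 and 15.7 FPKM in hypoxia. NF-kB subunits and inhibitors had 2 of 22 lower (Nfkbie and Nfkbib) and Bcl3 higher, below the background of 11.2% and 8.21%, and 2 in each direction without hypoxia replicate 1.

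Interferon response elements were searched as GAAA, any 2 bases and GAAA on either strand. They were in 20 of 37 promoters (54.1%) of 34 interferon-stimulated genes that fell. Their share was 3.09% in the promoters of tested genes and 18% in those of genes called at least 2-fold lower. The examples were picked among promoters with a match (RefSeq, GRCm38.p6, matches in capitals). They are 2 leading members, Ifit3 and Ifit1, with the chemokine Cxcl10 and the signalling factor Stat2 from other lists, and the stretch printed for Ifit3 is the same in its neighbour Ifit3b.
Ifit3 (chr19:34583361-34583428, plus strand): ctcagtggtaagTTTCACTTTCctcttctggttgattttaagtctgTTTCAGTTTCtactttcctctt
Ifit1 (chr19:34640773-34640825, plus strand): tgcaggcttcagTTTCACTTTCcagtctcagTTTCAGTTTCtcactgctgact
Cxcl10 (chr5:92349081-92349114, minus strand): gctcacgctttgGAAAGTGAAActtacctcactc
Stat2 (chr10:128270264-128270297, plus strand): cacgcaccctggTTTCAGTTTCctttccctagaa
Ifit1 and Ifit3 each hold a pair of elements in the same orientation. Ifit3 and Ifit3b share sequence, so reads may be split between them.

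Cell cycle genes did not move as a block. Cdkn1a, the inhibitor p21, read 16.7, 18.3 and 15.9 FPKM in normoxia and 171, 155 and 157 FPKM in hypoxia (log2 difference 3.18 ± 0.08, adjusted p = 5.74e-05), and Cdkn2d and Cdkn1b, also CDK inhibitors, rose by 1.06 ± 0.16 and 0.92 ± 0.12. Ccnd1, the G1 cyclin D1, fell from 54.0, 53.5 and 52.5 FPKM to 16.1, 24.7 and 20.5 FPKM. These groups did not overlap. Yet 19 of 40 mitotic cyclins, kinases and spindle genes rose and none fell (27 and none without hypoxia replicate 1), with modest sizes such as Kif23 at 1.01 ± 0.12, Tpx2 at 0.79 ± 0.10 and Ccnb2 at 0.73 ± 0.11. Of 35 kinetochore genes 10 were called higher and Zwint lower (17 and 2 without hypoxia replicate 1). Replication genes had 3 of 47 higher (Gmnn, Rrm2 and Cdc45) and Rpa1 lower, below the background, but 8 higher and 7 lower without hypoxia replicate 1, against 13.1% and 21.6% of all genes. Trp53 itself fell from 2118, 2077 and 2056 FPKM to 1354, 1578 and 1497 FPKM. Genes of the p53 pathway went both ways. Of 32 tested, 5 rose, Cdkn1a included, with Gadd45a at 1.01 ± 0.14, and 5 fell, with Aen at -1.03 ± 0.19. The counts were 5 and 9 without hypoxia replicate 1.

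In the NRF2, glutathione and thioredoxin group 14 of 38 fell and 3 rose, namely Hmox1, Slc7a11 and Prdx5 (24 and 5 without hypoxia replicate 1): Osgin1 and Gsto1 fell (log2 differences -1.41 and -1.07), and the haem oxygenase Hmox1 went from 74.5, 76.1 and 76.2 FPKM to 221, 162 and 201 FPKM. The metallothioneins Mt2 and Mt1, which bind zinc and copper, rose by 1.72 ± 0.12 and 1.42 ± 0.15. Of 29 genes of iron, haem and metallothionein 5 rose and 8 fell (5 and 14 without hypoxia replicate 1). Tfrc, the transferrin receptor, fell from 34.8, 34.4 and 34.2 FPKM to 10.3, 18.4 and 13.2 FPKM, and the haem synthesis enzyme Alas1 by 1.16. Nucleotide synthesis fell in 13 of 33 cases and rose in 1, Cda, which salvages cytidine (0.86 ± 0.11), or 21 and 3 without hypoxia replicate 1. In lipid handling 8 of 36 rose and 8 fell (10 and 11 without hypoxia replicate 1): the lipid droplet protein Hilpda went from 11.7, 11.9 and 11.7 FPKM to 84.5, 60.2 and 71.1 FPKM, and the lipoprotein receptor Vldlr rose by 1.64 ± 0.33, while Elovl6 and Cpt1a, for fatty acid elongation and mitochondrial import, fell (-1.34 and -1.18).

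**Figure D5:**
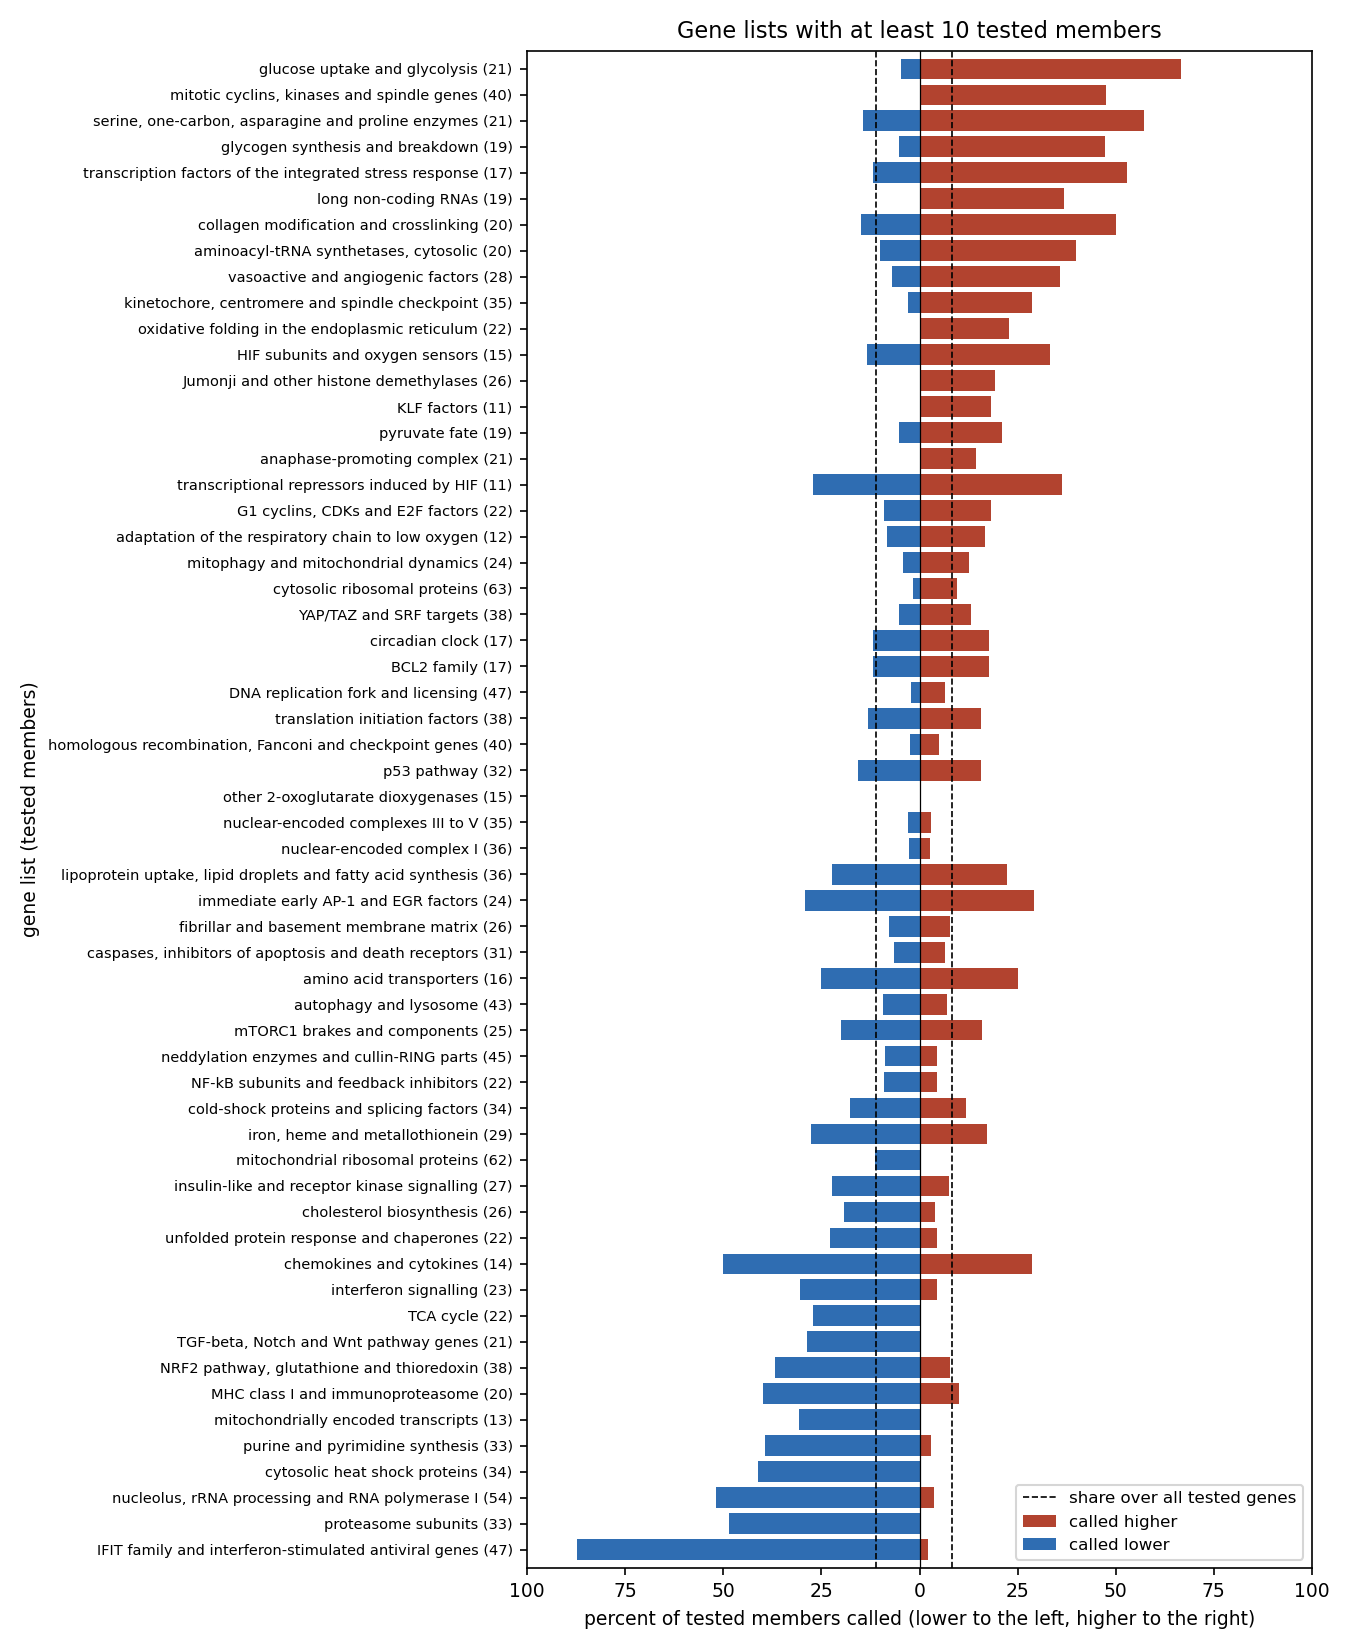
Percent of the tested members of each gene list (y axis, tested members in brackets, lists with at least 10) called higher in hypoxia (red, to the right) or lower (blue, to the left), with dashed lines at the shares over all tested genes (8.21% higher and 11.2% lower). Glycolysis, mitotic genes and serine enzymes stand at the top, and interferon-stimulated genes, proteasome subunits and nucleolar genes at the bottom.

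The response to hypoxia was compared with that under MLN4924 by the interaction term of a 12-library limma fit. That fit shares 1 spread over all libraries, although hypoxia replicate 1 of the DMSO group scattered more. The SE and p-values of the interaction may therefore be too small. The interaction passed for 231 genes (1.96%), 116 with a difference in the positive direction (0.983%) and 115 in the negative (0.974%). The interferon-stimulated genes held 15 of these and the mitotic list 20 of its 40 members. Ifit3 fell by 3.53 with DMSO and by 2.12 with MLN4924, a difference of 1.41 ± 0.17 (interaction adjusted p = 0.00365). Bub1, a spindle checkpoint kinase, rose by 0.81 with DMSO and had a log2 difference of -0.06 with MLN4924 (interaction -0.87 ± 0.12, adjusted p = 0.00581). None of the 21 glycolytic genes and none of the 15 HIF subunits and oxygen sensors passed this test, which does not show that their responses were alike: for Pgk1 the interaction was -0.22 (adjusted p = 0.515), and without hypoxia replicate 1 of the DMSO group 688 genes passed.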

How the data were processed

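Total RNA of GC-2 cells was sequenced as read pairs. The deposited values are FPKM, 1 column per library, computed by the authors. Per the submitters' processing notes, fastp, STAR, RSEM 1.3.3 and build mm39 were used, with roles not given, and the annotation and strandedness are not given in the sources used here. FPKM carries no counts, so the depth is unknown and no counting interval is given. Here, log2(FPKM + 1) of the 6 DMSO libraries was fitted with limma 3.58.1 (R 4.3.3, empirical Bayes with intensity trend), for genes at 1 FPKM or more in at least 3 libraries, with two-sided p adjusted by Benjamini-Hochberg over all 11805. The procedure was tested on simulated data with independent noise and the spread of the normoxia libraries. They held no library that deviates with transcript length, so the test does not cover hypoxia replicate 1. FPKM + 1 understates changes of low genes.

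The comparison, its 73 gene lists (1656 distinct tested genes) and the rules were chosen with earlier results of these data known. Named were the 12 highest and 12 lowest changes that passed with and without hypoxia replicate 1, at 5 FPKM or more and without overlap, and up to 4 called members of each list with the largest changes at 5 FPKM or more. Further genes were named after their values were seen. Symbols were used as in the table, and transcript lengths came from GENCODE vM21 (98.9% of tested genes), an older build. Promoters of 8910 tested genes, matched by symbol, came from RefSeq (GRCm38.p6). Alternatives were TPM scaling, size factors, pseudocount, filters, a 12-library spread, robust and weighted fits, a replicate block, each library left out, and a correction for transcript length. Results for some genes are not reported here.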

Additional observations from a re-analysis of the deposited data

Results flagged for a closer look

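The response to hypoxia differed between MLN4924 and DMSO for 37 reported genes among the 243 named by rule. The test was the interaction of the 12-library limma fit (adjusted p under 0.05), which passed for 1.96% of all tested genes. Named genes were picked for large changes with DMSO, and those values enter each difference. A smaller change with MLN4924 is therefore favoured by the selection. The spread shared by 12 libraries may also be too small for the DMSO hypoxia group. Each value is the log2 fold change with MLN4924 minus that with DMSO, and no cause was tested.

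Among genes that rose with DMSO, the difference was negative, a smaller or no rise with MLN4924, for Nr1d1 (-1.82, from 0.72 with DMSO to -1.10 with MLN4924), Sprr1a (-1.64), Trib3 (-1.42), Adm (-1.34), Slc7a11 (-1.22), Cdkn1a (-1.15), Chac1 (-1.01), Asns (-0.90), Bub1 (-0.87), Kif23 (-0.83), Maff (-0.81), Apln (-0.80), Ccnb2 (-0.77), Gbe1 (-0.70), Anln (-0.68), Cda (-0.62), H1f0 (-0.62), Eif4ebp1 (-0.49) and Cars (-0.43). These include regulators and enzymes tied to Atf4 and mitotic genes. It was positive, a larger rise, for H19 (1.10), Angptl6 (0.97), Ppp1r3c (0.76), P4ha2 (0.52) and Bhlhe40 (0.43).

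Among genes that fell with DMSO, the difference was positive, a smaller fall, no fall or a rise, for Star (2.13, from -1.15 with DMSO to 0.97 with MLN4924), Ifit3b (1.46), Ifit3 (1.41), Trex1 (1.30), Ifit1 (1.19), Cxcl10 (1.06), Acta2 (1.02), Ampd2 (0.97), Irf7 (0.82), Rad9a (0.49), Idh1 (0.43) and Hspb8 (0.28). It was negative only for Egr1 (-0.76), which fell by 0.96 with DMSO and by 1.72 with MLN4924.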

How the results depend on the processing

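None of the 243 called genes named by rule changed direction under any alternative run. Of the other genes mentioned, none of them called, Mki67 turned from -1.70 to 0.45 without hypoxia replicate 1, as did Etv5 (-0.20 to 0.04), and Mthfd2l (-0.10 to 0.02) and Hspa5, near 0 in both, turned with the length correction; these genes were checked in those settings alone. Calls were lost for 1 of the 243 without DMSO hypoxia replicate 1, 27 without hypoxia replicate 2, 58 without hypoxia replicate 3 and 106 to 109 without a normoxia library. Further losses were 9 after the length correction, 82 with the replicate block and 40 without the filter on low values. The TPM scale lost 16, a pseudocount of 0.1 lost 11 and median-of-ratios scaling lost 10. Among the 24 leading genes Bid, Epb41l1, Gm14822, Uba7 and the Snord3b copies lost the call in some of them. Leaving out 1 library gave 311 to 1548 genes higher (969 with all), 308 to 2548 lower (1319), 188 to 278 at least 2-fold higher (245), 121 to 267 at least 2-fold lower (195) and 99 to 688 interactions (231), the last including leaving out MLN4924 libraries, chosen after seeing the data. Leaving out hypoxia replicate 1 gave the 1548, 2548 and 688, hypoxia replicate 3 gave 507 higher and 675 lower, and normoxia replicates 1, 2 and 3 gave 334, 311 and 335 higher and 313, 308 and 326 lower. A spread shared by 12 libraries gave 1706 higher and 2392 lower. Array weights gave 1760 higher, 2842 lower and 880 interactions. The length correction gave 1539 higher, 1405 lower and 440 interactions, and 1896 higher with hypoxia replicate 1 also left out, an alternative chosen after seeing the data. The replicate block gave 415 higher, 414 lower and 131 interactions. Deviations of same-numbered libraries from their group means correlated at -0.02, 0.08 and -0.06. With 3 libraries per group this does not settle whether the numbers pair the libraries. At an unadjusted p under 0.05, 4192 genes passed. Depth is unknown, which limits statements on genes near 1 FPKM.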

Other observations

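Nfil3 and Ciart, repressors of the circadian clock, rose by 1.34 ± 0.20 and 1.28 ± 0.16 on the log2 scale, and Per2 went from 2.86 to 3.03 FPKM in normoxia to 0.57 to 0.82 FPKM in hypoxia; of 17 clock genes 3 rose, Nr1d1 included, and 2 fell, the other being Tef, a share near the 11.2% of all genes (4 and 4 without hypoxia replicate 1). Immediate early genes were divided, with 7 of 24 in each direction (8 higher and 9 lower without hypoxia replicate 1): Ier3 read 62.8, 64.3 and 65.5 FPKM in normoxia and 360, 233 and 268 FPKM in hypoxia, and Maff, Jun and Junb rose, while Egr1, Dusp6 and Dusp1, readouts of ERK signalling, fell by 0.96, 0.88 and 0.74. Of 27 genes of insulin-like and receptor kinase signalling 2 rose and 6 fell (3 and 9 without hypoxia replicate 1). Igfbp4 rose from at most 0.99 to at least 5.07 FPKM, and Fgfr2, Igf2bp3 and Igf1 fell by 1.27, 0.79 and 0.67.

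Genes of the TGF-beta, Notch and Wnt pathways had 6 of 21 lower and none higher (11 and 2 without hypoxia replicate 1), among them Notch1 and Ctnnb1 (log2 differences -0.93 ± 0.25 and -0.61 ± 0.12). Of 45 neddylation enzymes and cullin-RING parts 2 rose, Vhl and Uba3, and 4 fell (Cand2, Cops7b, Cops5 and Cul1), both below the 8.21% and 11.2% of all genes, and without hypoxia replicate 1 3 rose and 14 fell. The steroidogenic carrier Star went from 11.2, 10.8 and 10.1 FPKM to 2.61, 4.86 and 5.90 FPKM, without overlap of the groups. Prl2c2, a proliferin, fell from 19.7, 21.8 and 18.7 FPKM to 11.1, 7.14 and 6.52 FPKM.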
